A study of Mus musculus with 16 samples.

Results

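The CCAAT/enhancer-binding proteins (C/EBPs) are basic leucine zipper (bZIP) transcription factors. The RNA of 5 of their genes, Cebpa, Cebpb, Cebpd, Cebpe and Cebpg, was followed in liver and heart of the mouse. The genes were taken by symbol from a table of read counts for 48709 gene identifiers. Of these identifiers, 48349 were in the GENCODE M21 annotation, which gave the symbols. The family was chosen by the liver genotype contrast of Cebpe, whose values were already known, so the genotype comparison in liver and the WT liver levels of Cebpe are given as a description, without a test.

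RNA was sequenced from 8 female C57BL/6J mice aged 3 to 6 months, 4 wild type (WT) and 4 quadruple knockouts (QKO) of the methionine sulfoxide reductases, which return oxidised methionine to methionine. The 4 targeted genes are Msra, Msrb1, Msrb2 and Msrb3. Liver and heart came from the same untreated animals, which gave 4 groups of 4 libraries: WT liver, QKO liver, WT heart and QKO heart. How the 4 alleles were made is not given in the sources used here, and whether the WT animals were littermates of the QKO animals is not stated. RNA of the whole organ was used, so in every comparison fewer cells of a type and less RNA per cell cannot be told apart.

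Each C/EBP protein grips DNA with a basic region and pairs with a partner through an adjoining leucine zipper, as a homodimer or with another family member. C/EBPα drives the differentiation of hepatocytes and fat cells and the genes of gluconeogenesis. C/EBPβ and C/EBPδ act in the acute phase response to inflammation, C/EBPε in the last steps of granulocyte maturation, and C/EBPγ, which lacks a strong activation domain, mostly as a partner of other bZIP proteins.

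The part that the 5 genes share most is the coding sequence of the basic region, and it is printed to show how far their reads could be confused. Each line gives 63 bases, 5′ to 3′ on the coding strand, cut from the GENCODE M21 transcripts on GRCm38. Capitals mark the 31 bases that are the same in all 5 genes.
Cebpa, chr7:35120283-35120345 on the plus strand: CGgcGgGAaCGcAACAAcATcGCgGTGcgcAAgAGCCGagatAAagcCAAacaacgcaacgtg
Cebpb, chr2:167689703-167689765 on the plus strand: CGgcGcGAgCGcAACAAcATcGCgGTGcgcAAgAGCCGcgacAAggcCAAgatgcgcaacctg
Cebpd, chr16:15887913-15887975 on the plus strand: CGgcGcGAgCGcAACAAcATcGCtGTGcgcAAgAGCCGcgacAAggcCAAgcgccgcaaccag
Cebpe, chr14:54710695-54710757 on the minus strand: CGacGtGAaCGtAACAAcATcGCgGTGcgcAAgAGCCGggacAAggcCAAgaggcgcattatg
Cebpg, chr7:35050573-35050635 on the minus strand: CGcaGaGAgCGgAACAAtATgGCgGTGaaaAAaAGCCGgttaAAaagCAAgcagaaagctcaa

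Over this stretch Cebpb and Cebpd had 58 of 63 bases in common, the most of the 10 pairs. Cebpg stood apart, with 35 to 36 bases in common with each of the others. Cebpe shared 54 bases with Cebpb, 51 with Cebpd and 50 with Cebpa. The longest run of identical bases between 2 of the 5 transcripts was 29 bases, between Cebpa and Cebpb, and for Cebpe it was 26 bases. The reads were 75 bases long, so no read that matched 1 of these transcripts over its full length could match another without a mismatch.

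The whole series is described here only where it touches these genes. Liver libraries held 37.9 M to 67.9 M counts and heart libraries 42.1 M to 72.6 M. The RNA of Msrb2 fell from a mean of 4.45 to 0.0295 counts per 1 M counts (CPM) in QKO liver and from 12.95 to 0.161 CPM in QKO heart, and that of Msrb3 from 8.84 to 2.24 and from 48.3 to 7.87 CPM. Msra kept more of its RNA, with 55.5 and 33.9 CPM in WT and QKO liver, which did not pass the threshold (log2 change -0.72, SE 0.12, edgeR adjusted p = 0.0867). In heart it fell from 10.3 to 7.16 CPM (log2 change -0.52, SE 0.09, adjusted p = 0.0263). Msrb1 went the other way in heart, where it rose from 15.2 to 21.03 CPM (log2 change 0.48, SE 0.08, adjusted p = 0.0337), and in liver its groups overlapped, at 98.4 and 75.5 CPM (-0.39, SE 0.18, adjusted p = 1.00). So the RNA of Msrb2 and Msrb3 goes with the QKO label. Counts of Msra over the whole gene were lower in QKO animals, without overlap in either tissue, but were not lost. Those of Msrb1 do not show a loss. Ribosomal RNA of the nucleus made up 31.3% to 56.8% of the reads counted for 6 hearts. WT heart 4 had 7.20%, QKO heart 4 had 0.139%, and the livers had 0.0816% to 0.224%. Of the liver libraries, WT 3 and WT 4 held transcripts of pancreatic acinar cells. The sum of 7 acinar markers was 1112 and 313 CPM of the protein-coding counts there and 1.28 to 3.77 in the other 6 livers. On the same scale WT liver 4 also stood apart for skeletal muscle markers (297 against 0.541 to 23.9) and adipocyte markers (123 against 17.7 to 34.2), and WT liver 3 for B and plasma cell markers (46.8 against 5.75 to 8.30). Results are therefore also given without those 2 livers and without the replicate 4 hearts.

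Levels are CPM after trimmed-mean (TMM) scaling of all 16 library sizes together, with mean ± SD over 4 animals. Sums of marker genes are CPM of the protein-coding counts without that scaling. Differences are log2 fold changes with their standard error (SE) from edgeR's quasi-likelihood test, with Benjamini-Hochberg adjustment over all genes tested and a threshold of 0.05. Cebpa, Cebpb, Cebpd and Cebpg passed the expression filter in all 4 comparisons. Cebpe passed it where WT liver took part and in neither of the other 2 comparisons.

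Cebpe (ENSMUSG00000052435.6) is a gene of 2 exons on the minus strand of chromosome 14, 54710360 to 54712174 on GRCm38. Its RNA was present in every WT liver, nearly missing from QKO livers, and not seen in any heart. The WT livers held 45, 195, 51 and 37 counts in the order of replicates 1 to 4, or 0.920, 2.14, 0.549 and 0.567 CPM. The QKO livers held 1, 0, 0 and 0 counts. All 8 heart libraries held 0 counts. No QKO liver came near the lowest WT liver.

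**Figure D1:**
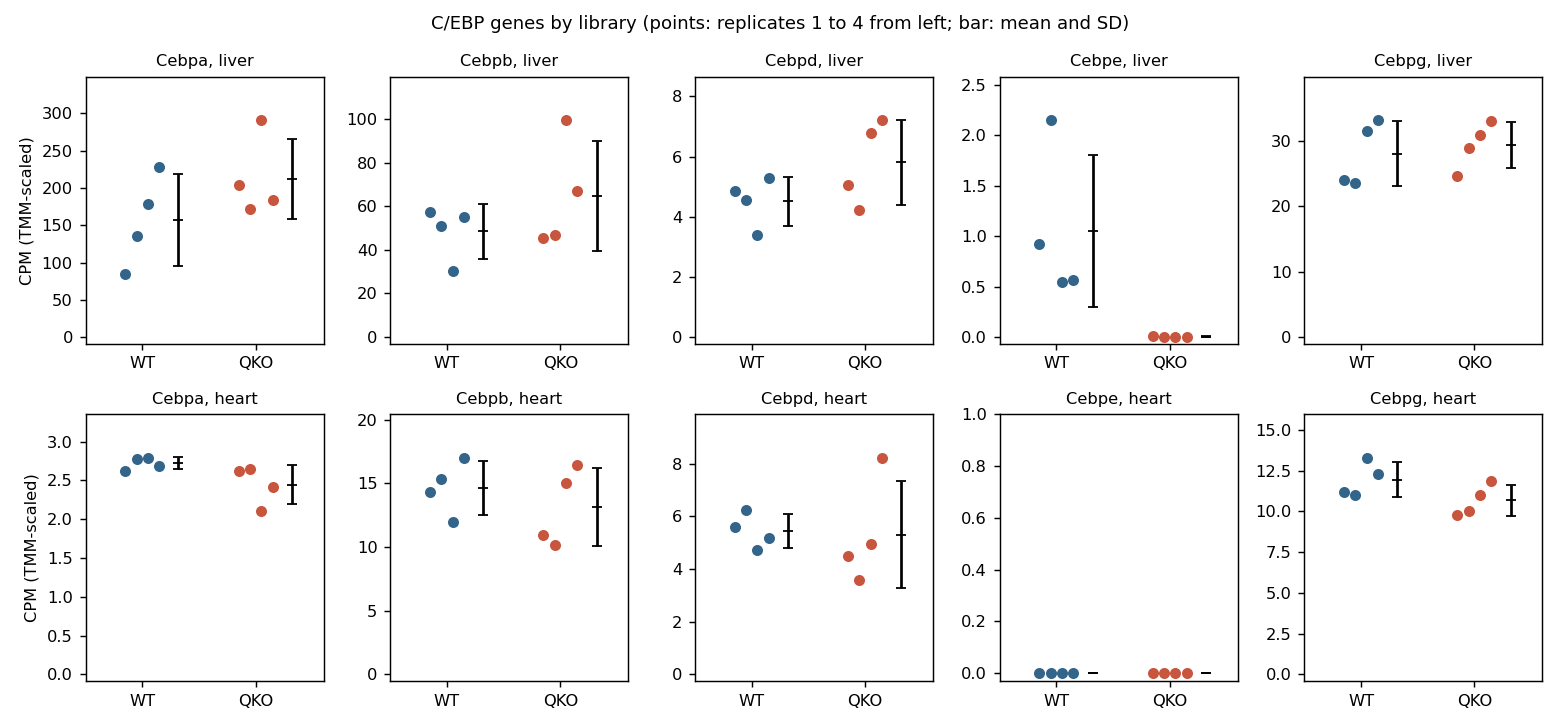
Level of each C/EBP gene in every library, liver in the upper row and heart in the lower row, in TMM-scaled CPM on linear axes that differ between panels. Points are the 4 animals of a group, and bars the mean and SD. Cebpe lay between 0.549 and 2.14 CPM in WT livers and at 0.0115 CPM or less in QKO livers, while WT and QKO points of the other 4 genes overlapped in both tissues.

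Summed over the groups, Cebpe had 328 counts in WT livers and 1 in QKO livers, a depth-corrected ratio of 336 with a 95% exact binomial interval of 59.9 to 13316. The interval covers counting error only. Against WT hearts the WT livers were at least 67.0-fold higher, taking 3 counts over the group as the floor for a count of 0. That floor stood at 0.0164 CPM in WT hearts and 0.0160 CPM in QKO hearts, so a lower level there would not have been detected at this depth. Without WT liver 2, left out after seeing the data, the ratio to QKO livers was 196 (interval 34.6 to 7806) and the bound against WT hearts 39.1-fold. For QKO livers, whose scaled library sizes sum to more, 3 counts correspond to 0.00983 CPM.

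WT livers did not share the Cebpe signal equally. WT liver 2 gave 59.5% of the WT counts, and its level was 3.16 times the mean of the other 3 WT livers, which was 0.679 ± 0.209 CPM (SD, n = 3). With all 4 livers the mean was 1.05 ± 0.753 CPM. The fitted log2 change of QKO over WT liver was -7.74 (SE 0.82), and it ran from -9.27 without QKO liver 1, the sole QKO library with a count, to -7.10 without WT liver 2. It was -8.29 without WT livers 3 and 4. A fitted value against a group at or near 0 depends on the small count added in the fit. In liver, 15 of 17738 genes passed the threshold (0.0846%), and Cebpe was the 1 member of 5 among them. Since the family was picked with this value in view, nothing is read from that count.

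Granulocyte markers were low in the livers of both genotypes. Of 19 neutrophil genes, 9 had a mean under 0.1 CPM in WT liver and 12 in QKO liver. The filter was passed by 5, and the threshold by none (0 of 5, against 0.0846% of all genes tested). All 5 had a log2 change below 0, with a median of -0.40 against -0.01 over all genes tested. Ctsg and Ly6g, which encode cathepsin G and a neutrophil surface antigen, had 0 counts in WT livers. Mpo, the myeloperoxidase of the primary granules, averaged 0.0193 CPM, and Elane, neutrophil elastase, 0.0276 CPM. The sum of the 19 genes was 46.6, 8.29, 7.68 and 11.7 CPM of the protein-coding counts in WT livers 1 to 4, and 4.97, 22.2, 13.3 and 15.4 in QKO livers. The ranges of WT and QKO overlapped, the highest sum was in WT liver 1, and the highest Cebpe level was in WT liver 2. The sum of QKO liver 2 held 381 counts (4.67 CPM) of Ltf, the lactoferrin gene, which had 2 to 8 counts in the other QKO livers. The part of granulocytes in the Cebpe values was not tested.

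In WT livers the most abundant neutrophil genes were Lcn2, S100a9 and S100a8, which encode lipocalin 2 and the subunits of calprotectin. S100a9 averaged 1.66 ± 2.29 CPM in WT and 0.744 ± 0.197 CPM in QKO livers, with a log2 change of -1.12 (SE 0.74, edgeR adjusted p = 1.00). Among 9 eosinophil genes, Prg3, Ear1 and Ear6 had 0 counts in WT livers, and Ear2, a ribonuclease, was alone in passing the filter. It had 1.05 ± 0.205 CPM in WT and 0.955 ± 0.172 CPM in QKO livers, a log2 change of -0.14 (SE 0.24, adjusted p = 1.00). The eosinophil sum was 2.19 to 3.94 CPM of the protein-coding counts in WT livers and 1.80 to 3.07 in QKO livers. It was lowest among the WT livers in WT liver 2.

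The genes around Cebpe were taken next, by position alone. Of 37 other protein-coding genes within 0.5 Mb, 28 could be tested in liver and 30 in heart. None passed the threshold in liver (0 of 28), against 0.0846% of all 17738 genes tested, so a call was unlikely in a list of this size. The median log2 change in liver was -0.14, with a range of -1.88 to 0.84, against a median of -0.01 over all genes tested. The nearest gene on the side of lower coordinates, 1700123O20Rik, lay 19.6 kb away and had a liver log2 change of 0.21 (SE 0.17) and a heart log2 change of 0.07 (SE 0.12). On the other side Slc7a8, an amino acid transporter, lay 10.035 kb away with a liver value of -0.42 (SE 0.32) and a heart value of -0.71 (SE 0.31).

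In heart 1 of the 30 neighbours passed the threshold, against 0.165% of all 16974 genes tested there. It was Myh7, the slow beta-myosin heavy chain, 259 kb from Cebpe, which rose from 146.5 ± 20.3 to 693 ± 41.7 CPM (log2 change 2.24, SE 0.10, edgeR adjusted p = 3.23e-08). The lowest value in both tissues belonged to Ppp1r3e, a glycogen-targeting subunit of protein phosphatase 1, which is named because of its value. Its level was 0.655, 0.671, 1.18 and 0.904 CPM in WT livers and 0.241, 0.282, 0.234 and 0.176 CPM in QKO livers. In heart it was 0.596, 0.415, 0.494 and 0.453 CPM in WT and 0.0698, 0.0575, 0.213 and 0.116 CPM in QKO. WT and QKO did not overlap in either tissue, but neither log2 change passed the threshold, at -1.88 for liver (SE 0.32, adjusted p = 0.0840) and -2.05 for heart (SE 0.40, adjusted p = 0.0949). The share of all genes without overlap is not given here, so nothing is read from that. Psmb5, 92.3 kb from Cebpe and also named for its value, did not pass either. Its log2 change was -0.76 in liver (SE 0.13, adjusted p = 0.0861) and -0.42 in heart (SE 0.10, adjusted p = 0.263). Msra, 1 of the targeted genes, lies on the same chromosome, 9.41 Mb from Cebpe.

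**Figure D2:**
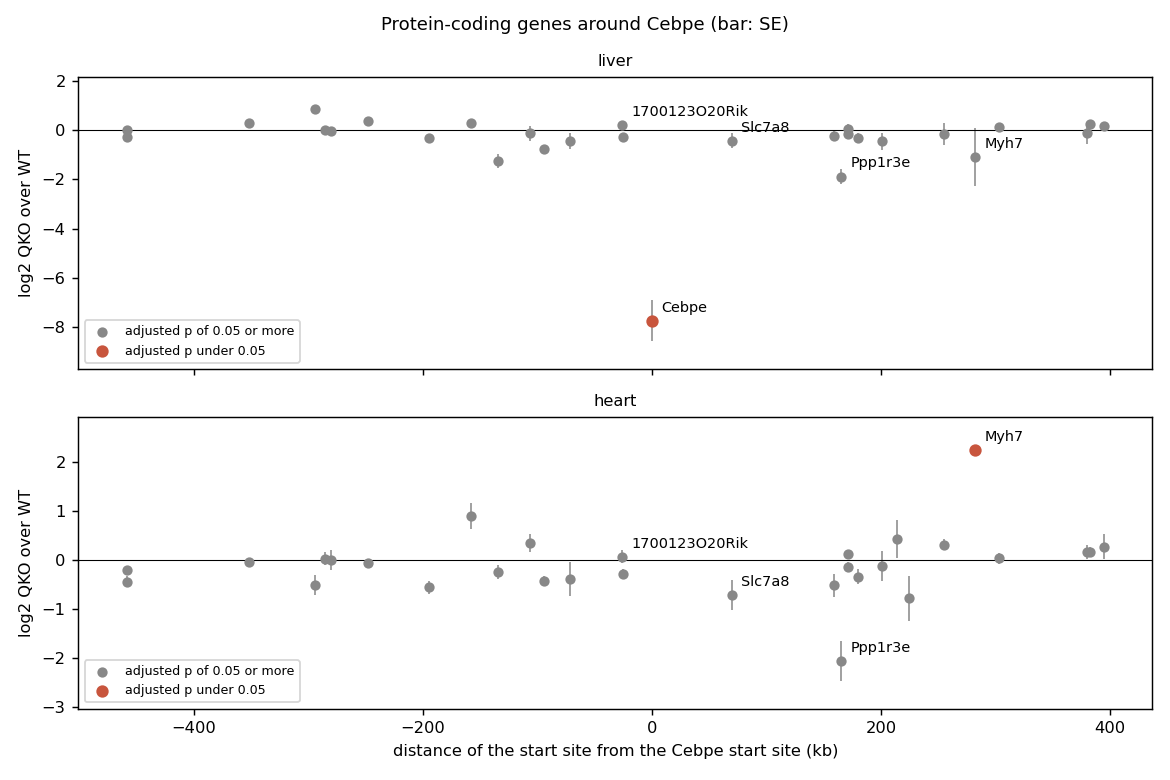
Log2 change of QKO over WT (vertical axis, bars SE) of protein-coding genes that could be tested within 0.5 Mb of Cebpe, by the distance of their start sites from that of Cebpe in kb, liver above and heart below. In liver Cebpe lies at -7.74 and its neighbours between -1.88 and 0.84. In heart Cebpe could not be tested and Myh7 lies at 2.24.

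Cebpa (ENSMUSG00000034957.10) is a gene of 1 exon on the plus strand of chromosome 7, 35119293 to 35121928. Its transcript was abundant in liver and scarce in heart. WT livers 1 to 4 had 84.4, 135.9, 178 and 229 CPM, and QKO livers 203, 172, 291 and 184 CPM. The WT livers were spread over a wider range than the QKO livers, and the groups overlapped. The mean was 157 ± 61.4 CPM in WT and 212 ± 53.6 CPM in QKO livers (SD, n = 4), a log2 change of 0.43 (SE 0.28). That value rested on single libraries, being 0.22 without WT liver 1, 0.23 without QKO liver 3, 0.67 without WT liver 4, and 0.96 without WT livers 3 and 4. WT liver 4, the highest WT liver for Cebpa, is also the liver with the highest adipocyte markers, and their part in its value was not tested.

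Hearts had 2.623, 2.78, 2.79 and 2.69 CPM of Cebpa in WT and 2.616, 2.65, 2.10 and 2.41 CPM in QKO animals. WT hearts lay in a narrow range, and 3 of the 4 QKO hearts were below all of them, by little in QKO heart 1. The log2 change of QKO over WT was -0.16 (SE 0.13), with a 95% interval of -0.42 to 0.10, and did not pass the threshold (edgeR adjusted p = 0.816). An exact permutation test, two-sided, gave p = 0.0571, where 0.0286 is the smallest that 70 relabellings can give. The count of Cebpa behind each heart value was 67 to 237.

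Cebpa was 57.3-fold lower in WT heart than in WT liver (log2 change -5.84, SE 0.31, edgeR adjusted p = 2.65e-08). In QKO heart it was 85.2-fold lower than in QKO liver (-6.41, SE 0.21, adjusted p = 2.49e-11). Every heart was below every liver in both genotypes. Most genes differ between these organs: 72.5% of 18204 genes passed in WT and 74.3% of 18039 in QKO, and 36.9% and 37.1% were lower in heart.

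Hepatocyte transcripts were also present in the heart libraries, and their source was not tested. The sum of 7 hepatocyte genes was 843, 528, 362 and 162 CPM of the protein-coding counts in WT hearts 1 to 4, and 424, 307, 242 and 197 in QKO hearts. It varied over a far wider range than Cebpa in the same hearts. The hepatocyte genes stood at 0.294% to 0.604% of their liver level in WT hearts and at 0.172% to 0.293% in QKO hearts. Cebpa stood above these shares, at 1.73% and 1.15%, and the part of RNA from liver in its heart level was not tested. Adipocyte markers, whose cell type expresses Cebpa, summed to 266 to 360 in WT hearts and 291 to 353 in QKO hearts on the same scale. Most of that sum was Fabp4, at 97.2 CPM in WT and 106 CPM in QKO hearts after TMM scaling. Pparg had 4.53 and 4.39 CPM, Cfd 0.968 and 1.12 CPM, and the other adipocyte markers less. The part of adipocytes in the heart level of Cebpa was not tested.

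**Figure D3:**
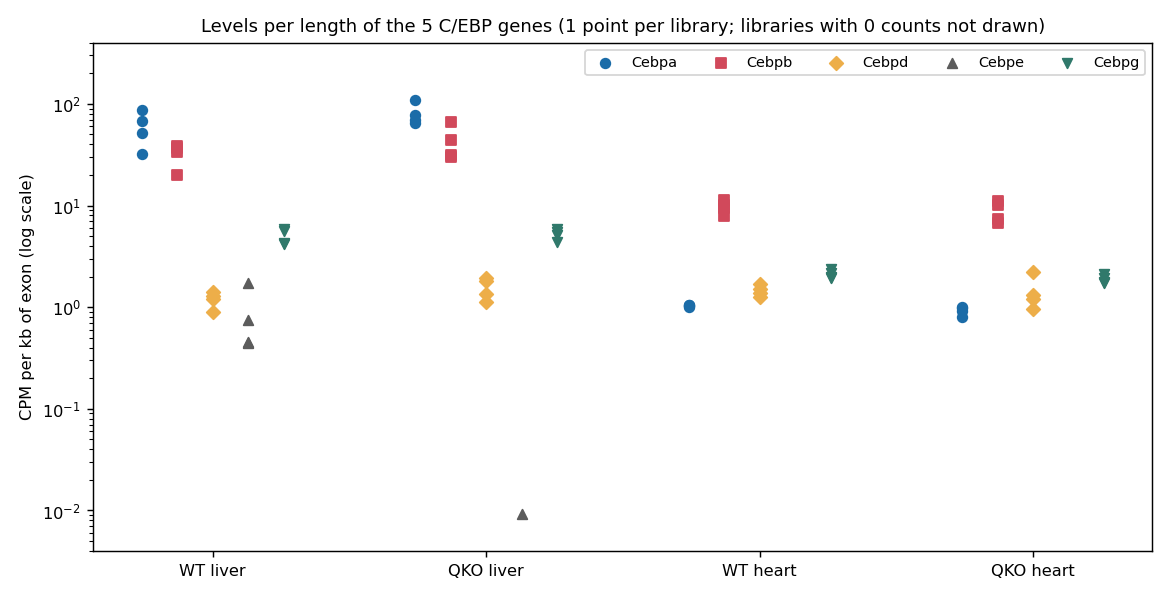
Level per length of the 5 genes, in CPM per kb of exon on a log axis, by tissue and genotype, with 1 point per library and libraries without a count left out. In livers Cebpa and Cebpb lie highest and Cebpd lies at 0.906 to 1.92, and in hearts Cebpb lies highest, with Cebpa at 0.797 to 1.06.

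Cebpb (ENSMUSG00000056501.3) is also a gene of 1 exon, on the plus strand of chromosome 2, 167688915 to 167690418. WT livers 1 to 4 had 57.5, 51.0, 30.1 and 55.2 CPM, and QKO livers 45.4, 46.9, 99.3 and 66.9 CPM. The lowest value was in WT liver 3 and the highest in QKO liver 3, and the other 6 livers lay between 45.4 and 66.9 CPM. The mean was 48.5 ± 12.6 CPM in WT and 64.7 ± 25.1 CPM in QKO livers, with a log2 change of 0.41 (SE 0.27). It was 0.12 without QKO liver 3, 0.25 without WT liver 3 and 0.27 without WT livers 3 and 4.

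In heart, Cebpb stood at 14.3, 15.4, 11.97 and 17.01 CPM in WT and at 10.99, 10.2, 15.1 and 16.5 CPM in QKO animals, so the groups overlapped. The log2 change was -0.15 (SE 0.15, 95% interval -0.44 to 0.14, edgeR adjusted p = 0.834, exact permutation p = 0.371). The step from liver to heart was much smaller than that of Cebpa. It was -1.71 in WT (SE 0.20, adjusted p = 1.46e-05) and -2.26 in QKO animals (SE 0.25, adjusted p = 3.48e-06), which left 30.3% and 20.4% of the mean liver level.

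Cebpd (ENSMUSG00000071637.5), a gene of 1 exon on the plus strand of chromosome 16, 15887286 to 15891031, was the member whose level differed least between the organs. WT livers had 4.85, 4.54, 3.39 and 5.30 CPM and QKO livers 5.04, 4.23, 6.79 and 7.20 CPM. Hearts had 5.604, 6.26, 4.73 and 5.19 CPM in WT and 4.50, 3.57, 4.94 and 8.23 CPM in QKO animals. The liver groups overlapped, with a log2 change of 0.36 (SE 0.21). QKO heart 4, the heart library with the least ribosomal RNA, was the highest of all 16, and the other 3 QKO hearts lay in the lower part of the WT range or under it.

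For Cebpd in heart the log2 change was 0.00 (SE 0.20, 95% interval -0.39 to 0.39, edgeR adjusted p = 1.00, exact permutation p = 0.743). Its sign is not settled, since it was -0.32 without QKO heart 4 and -0.34 without both replicate 4 hearts, with adjusted p of 0.837 and 0.702. The tissue difference did not pass in either genotype, at 0.28 in WT (SE 0.16, 95% interval -0.04 to 0.60, adjusted p = 0.141) and -0.08 in QKO animals (SE 0.25, 95% interval -0.56 to 0.40, adjusted p = 0.786). The WT value passed in 1 alternative, a filter of 1 CPM in 4 libraries, with 0.38 and an adjusted p of 0.0494.

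Cebpg (ENSMUSG00000056216.9) has 3 separate stretches of exon on the minus strand of chromosome 7, 35046422 to 35056573, and lies 62.7 kb from Cebpa. Its coefficient of variation within a group was 8.87% to 17.7%. WT livers had 24.0, 23.6, 31.5 and 33.1 CPM and QKO livers 24.7, 29.0, 30.8 and 33.0 CPM. The liver means were 28.03 ± 4.97 and 29.4 ± 3.53 CPM (SD, n = 4), a log2 change of 0.06 (SE 0.16) that became 0.31 without WT livers 3 and 4 and -0.02 without WT liver 2. Hearts had 11.2, 10.99, 13.3 and 12.3 CPM in WT and 9.80, 10.04, 11.004 and 11.9 CPM in QKO animals.

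The heart values of Cebpg overlapped between genotypes, with 2 QKO hearts below all WT hearts. The log2 change was -0.16 (SE 0.09, 95% interval -0.33 to 0.02, edgeR adjusted p = 0.738, exact permutation p = 0.143). From liver to heart Cebpg fell by 1.22 on the log2 scale in WT (SE 0.14, adjusted p = 1.23e-05) and by 1.42 in QKO animals (SE 0.12, adjusted p = 1.89e-07). None of the 4 members tested between WT and QKO hearts passed the threshold, against 0.165% of all genes tested there. The p-values of the exact tests are unadjusted. Without the replicate 4 hearts the log2 changes were -0.15 for Cebpa and -0.19 for both Cebpb and Cebpg (adjusted p = 0.891, 0.842 and 0.766 in edgeR). Between WT tissues, leaving out WT livers 3 and 4 gave -5.35 for Cebpa, -1.89 for Cebpb and 0.21 for Cebpd, and Cebpg still passed as lower in heart (adjusted p = 6.76e-06). Leaving out WT heart 4 gave -5.84 for Cebpa, -1.79 for Cebpb, 0.30 for Cebpd and -1.24 for Cebpg. Without QKO heart 4 the QKO values of these genes were -6.41, -2.39, -0.39 and -1.49.

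Per length, the members ranked differently in the 2 organs. In WT livers Cebpa had 59.5 ± 23.3, Cebpb 32.2 ± 8.35, Cebpg 4.99 ± 0.883, Cebpd 1.21 ± 0.217 and Cebpe 0.842 ± 0.606 CPM per kb of exon. Cebpa and Cebpb overlapped, with Cebpa the higher within 3 of 4 livers, as did Cebpd and Cebpe. QKO livers had the same order for the first 4 genes, at 80.6 ± 20.3, 43.0 ± 16.7, 5.23 ± 0.628 and 1.55 ± 0.377 CPM per kb, and Cebpa exceeded Cebpb within all 4 of them. Hearts ranked Cebpb first, at 9.75 ± 1.41 in WT and 8.76 ± 2.04 CPM per kb in QKO animals. Cebpg, Cebpd and Cebpa came after it, at 2.12 ± 0.188, 1.45 ± 0.173 and 1.03 ± 0.0301 in WT hearts, without overlap.

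In QKO hearts the last 3 ranked alike, at 1.90 ± 0.169, 1.42 ± 0.542 and 0.927 ± 0.0955 CPM per kb, but the range of Cebpd overlapped both its neighbours. As a share of the 5 genes' summed level per length, Cebpa made up 58.8% ± 13.1 in WT liver, 62.2% ± 4.79 in QKO liver, 7.24% ± 0.820 in WT heart and 7.42% ± 2.06 in QKO heart. Cebpb made up 33.9% ± 12.4, 32.4% ± 4.71, 67.7% ± 3.42 and 67.1% ± 3.06. On average Cebpb was thus the main member in heart and Cebpa in liver, in both genotypes.

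Several members overlap genes on the opposite strand, taken over the whole gene spans, and the strand setting of the authors' counting is not given in the sources used here. Reads of such partners cannot be told apart on these counts. Gm45091, an antisense RNA that begins inside Cebpa and runs away from it, overlaps 313 bases of Cebpa. The count of Gm45091 was 0.0731 to 0.0904 of that of Cebpa in livers and 0.0759 to 0.134 in hearts. It followed Cebpa between organs, with a log2 change of -5.37 (SE 0.34) in WT and -6.38 (SE 0.29) in QKO animals.

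The promoter of Cebpa is printed because the span of Gm45091 runs through it on the opposite strand. It holds the 250 bases before the RefSeq start of Cebpa (GRCm38.p6, chr7:35119043-35119292, plus strand, 66.4% G or C). Capitals mark a TATAAA motif that begins 30 bases before the start.
Cebpa promoter: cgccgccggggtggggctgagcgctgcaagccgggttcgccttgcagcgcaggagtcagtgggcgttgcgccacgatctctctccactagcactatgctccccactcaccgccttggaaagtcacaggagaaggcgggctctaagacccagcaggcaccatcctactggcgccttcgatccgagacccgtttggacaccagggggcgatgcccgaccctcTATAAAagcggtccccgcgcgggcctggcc
RefSeq windows of 250 bases before to 50 after the start were at hand for Cebpa, Cebpb and Cebpg. On either strand, TATAAA occurred once in those of Cebpa and Cebpb and not in that of Cebpg, against 13.6% of all 32851 windows. In the Cebpb window it lay after the RefSeq start, not before it. CCAAT occurred 2 times in that of Cebpg and not in the other 2, against 37.4% of all windows. The loose C/EBP motif TTNNGNAA, which includes the palindrome TTGCGCAA, was found in none of the 3 windows, and 40.7% of all windows hold it.

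**Figure D4:**
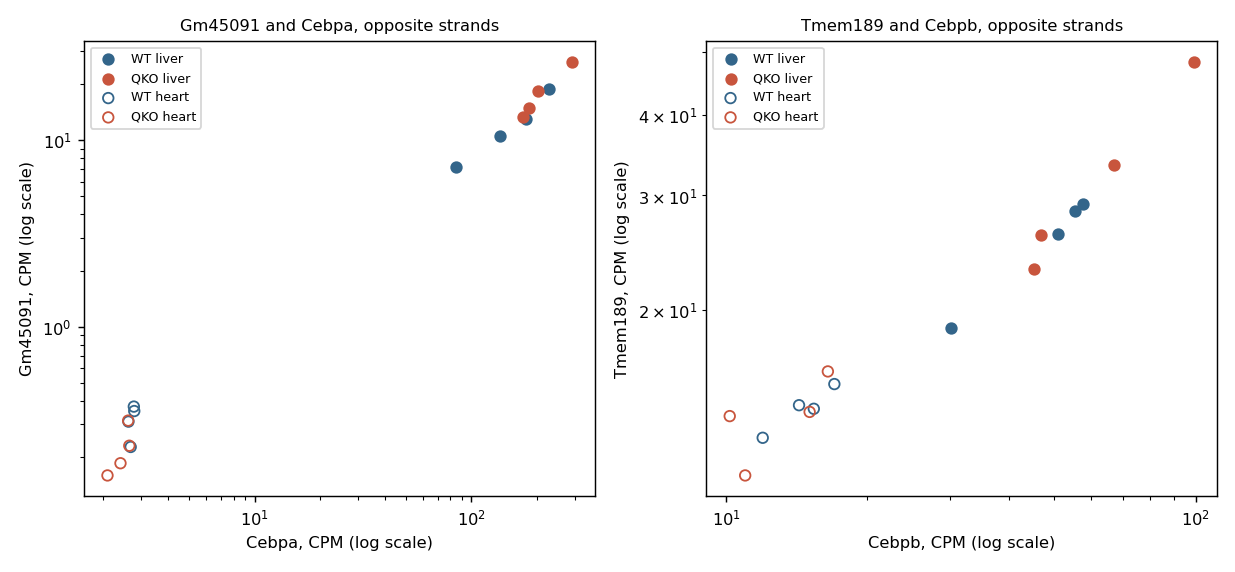
Level of the gene on the opposite strand against that of the C/EBP gene it overlaps, in CPM on log axes, 1 point per library. Gm45091 lies along a line with Cebpa over livers (filled) and hearts (open), and Tmem189 rises with Cebpb in livers and is flatter in hearts.

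Tmem189, a protein-coding gene on the other strand from Cebpb, shares 908 bases with it. Its count was 0.485 to 0.622 of the Cebpb count in livers and 0.902 to 1.34 in hearts. In liver it was 25.6 ± 4.75 CPM in WT and 32.7 ± 11.2 CPM in QKO animals, and in heart 14.1 ± 1.09 and 13.7 ± 2.03 CPM. Spidr shares 1808 bases with Cebpd, and its count was 0.434 to 0.794 of the Cebpd count in livers and 0.172 to 0.425 in hearts. Spidr was at 2.98 ± 0.238 CPM in WT and 2.99 ± 0.1002 CPM in QKO livers. The 3 counted gene models that overlap Cebpg had at most 0.0430 of its count in any library. Among the annotated genes that were counted, none overlaps Cebpe.

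The bZIP partners and regulators of C/EBP proteins were taken as a list of 20 genes, chosen with earlier results of these data known. None passed the threshold between genotypes in liver (0 of 19 tested) or in heart (0 of 17). Of all genes tested between genotypes, 0.0846% passed in liver and 0.165% in heart. In liver 16 of the 19 had a log2 change above 0, with a median of 0.20, and in heart 8 of 17, with a median of -0.02. The medians over all genes tested were -0.01 and 0.00. In liver the most abundant was Tef, a PAR-domain bZIP factor under circadian control, at 118 ± 14.4 CPM in WT and 113 ± 4.33 CPM in QKO animals. Dbp, of the same group, had 38.8 ± 9.33 and 41.7 ± 20.004 CPM.

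Atf4 and Atf5, stress-response factors that pair with C/EBPs, had 37.4 ± 6.73 and 20.96 ± 7.86 CPM in WT and 43.2 ± 5.73 and 21.3 ± 3.90 CPM in QKO livers. Jund, an AP-1 subunit, had 29.1 ± 14.1 and 31.6 ± 6.42 CPM. Cop1, the ubiquitin ligase that degrades C/EBPα when bound to TRIB1 or TRIB2, had 32.9 ± 5.34 and 36.1 ± 3.40 CPM. Ddit3, known as CHOP, which blocks C/EBP binding by pairing with it, is named because of its value. Its log2 change was -0.43 for liver (SE 0.20, adjusted p = 1.00) and -0.37 for heart (SE 0.13, adjusted p = 0.655). In heart WT and QKO did not overlap for Ddit3 or for Cop1. The share of all genes without overlap is not given here, so nothing is read from that. Fos, also named for its value, had the largest heart change of the list, at 1.97 (SE 0.54, adjusted p = 0.379), and its groups overlapped. In WT animals 3 of 19 partners were higher in heart and 7 lower, against 35.6% and 36.9% of all genes tested. The 3 higher ones, named after their values were seen, were Trib2 at 3.03 (SE 0.15, adjusted p = 1.46e-08), Fosl2 at 2.22 (SE 0.23, adjusted p = 4.79e-06) and Jun at 1.30 (SE 0.32, adjusted p = 0.00365).

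**Figure D5:**
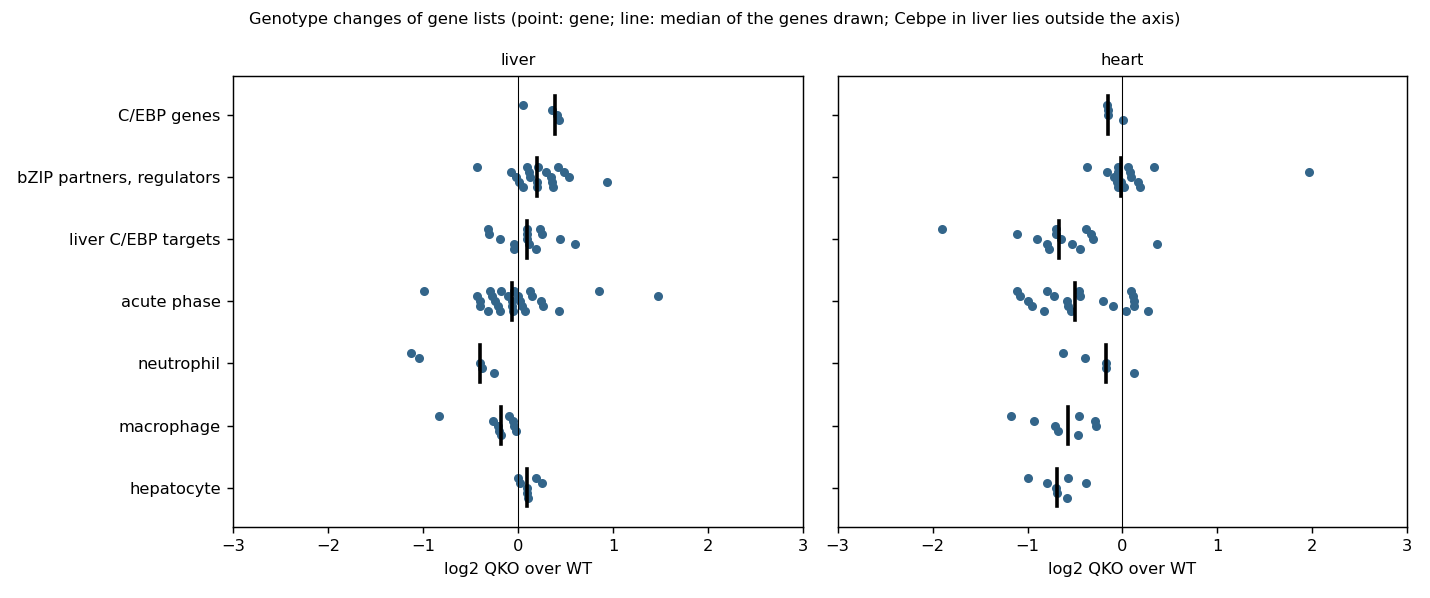
Log2 change of QKO over WT for each tested gene of 7 lists, in liver on the left and heart on the right, with a black line at the median of the genes drawn. Cebpe in liver, at -7.74, lies outside the axis and is not in the median drawn. In liver the medians of C/EBP targets, acute phase, macrophage and hepatocyte genes lie between -0.18 and 0.09, and in heart those of the same 4 lists lie at -0.50 or below. Alb, Ttr, Fgb and Lcn2 each belong to more than a single list.

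Genes known as liver targets of C/EBPα made a list of 14. None passed between genotypes in liver (0 of 14, against 0.0846% of all genes tested) or in heart (0 of 14, against 0.165%). The liver median was 0.09, with 9 of 14 above 0. Alb, which encodes albumin, had a log2 change of 0.25 (SE 0.21, adjusted p = 1.00), and Ttr, which encodes transthyretin, 0.19 (SE 0.17, adjusted p = 1.00). In heart the median was -0.67 with 13 of 14 below 0, beside a median of -0.68 for the 7 hepatocyte markers, all below 0 and none past the threshold. Alb and Ttr belong to both lists, so these medians are not independent. All 14 passed as lower in WT heart than in WT liver, with a median of -7.67 against -5.84 for Cebpa. Of all genes tested, 36.9% were lower in WT heart and 72.5% passed in either direction. The lowest were Gys2, the liver glycogen synthase, at -8.27 (SE 0.39, adjusted p = 1.02e-08), Ttr at -8.10 (SE 0.55, adjusted p = 1.78e-07) and G6pc, the glucose 6-phosphatase, at -7.99 (SE 0.49, adjusted p = 7.42e-08).

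Acute phase and inflammatory genes associated with C/EBPβ and C/EBPδ made a list of 28. Of all genes tested between genotypes, 0.0846% passed in liver and 0.165% in heart. Of this list none passed in liver (0 of 27 tested, median -0.06) or in heart (0 of 20, median -0.50). The heart median stands beside -0.68 for the 7 hepatocyte markers, of which Fgb is also on this list. The part of RNA from liver in the heart values was not tested. The most abundant in liver were Hpx, which encodes hemopexin, at 2939 ± 1148 CPM in WT and 2834 ± 978 CPM in QKO animals, the complement gene C3, at 2656 ± 130.4 and 2338 ± 245 CPM, and the fibrinogen gene Fga, at 2450 ± 425 and 2501 ± 398 CPM. Itih3, which encodes an inter-alpha-trypsin inhibitor heavy chain, and Il1b, the interleukin 1β gene, are named because their liver groups did not overlap. The share of all genes without overlap is not given here, so nothing is read from that. Itih3 had 682 ± 84.9 CPM in WT and 521 ± 20.04 CPM in QKO livers, a log2 change of -0.40 (SE 0.14, adjusted p = 1.00). Il1b had 2.13, 2.99, 2.09 and 1.59 CPM in WT livers and 5.83, 6.75, 8.74 and 3.41 CPM in QKO livers, a log2 change of 1.48 (SE 0.28) that did not pass the threshold (adjusted p = 0.142).

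Macrophage genes, whose cells use Cebpb, were given as a list of 9. None passed between genotypes in liver (0 of 9, against 0.0846% of all genes tested) or in heart (0 of 8, against 0.165%). All 9 were below 0 in liver, with a median of -0.18, and all 8 in heart, with a median of -0.57. Clec4f, a Kupffer cell lectin, had 106 ± 27.1 CPM in WT and 105 ± 19.1 CPM in QKO livers. Cd5l, a secreted macrophage protein, had 97.7 ± 22.1 and 85.6 ± 8.59 CPM. In WT hearts Clec4f and Cd5l had only 0.332 and 0.367 CPM, and both are part of the heart median. Csf1r, the receptor of macrophage colony-stimulating factor, had 48.4 ± 10.2 and 47.2 ± 9.29 CPM in livers. In hearts Csf1r had 23.9 ± 2.59 CPM in WT and 17.4 ± 1.73 CPM in QKO animals, without overlap. Its heart log2 change of -0.46 (SE 0.09) did not pass the threshold (edgeR adjusted p = 0.102). Vsig4, Cd68 and C1qa of this list did not overlap in hearts either, with log2 changes of -1.18, -0.68 and -0.46. The share of all genes without overlap is not given here, so nothing is read from that. The sum of the 9 macrophage genes was 727 to 1114 CPM of the protein-coding counts in WT and 693 to 843 in QKO livers. In hearts it was 118 to 193 in WT and 94.8 to 126 in QKO animals, and its part in the Cebpb values was not tested.

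The genes whose profiles came closest to each member were found by the root mean square difference of log2 CPM, each profile centred on its own mean, over 16 libraries and 12609 protein-coding genes. For Cebpa they were Tm7sf2 at 0.343, Stard10 at 0.350 and Tkfc at 0.374. Immp2l, at 0.265, and Tspan4, at 0.277, were among the 3 nearest to Cebpb. Cebpd was nearest to Bcl2l1 at 0.239 and to Igfbp7 and Pias4, both at 0.248. Cebpg had the closest companions, Eif5 at 0.124, Gtf2h1 at 0.141 and Timm9 at 0.144. For Cebpe the closest of these genes were Acsl3, Nox4 and Ntrk2, at 2.15, 2.16 and 2.17, much farther away than for the other members. Genes with a mean under 1 CPM in every group were not compared.

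The genes around Cebpa and Cebpg showed no call either. Of 14 other protein-coding genes within 0.5 Mb, 10 could be tested and 0 passed in each tissue. Of all genes tested, 0.0846% passed in liver and 0.165% in heart. The median log2 change of the 10 neighbours was 0.07 in liver and -0.11 in heart. Pepd, a dipeptidase gene 1.71 kb from Cebpg, had a liver value of 0.21 (SE 0.13) and a heart value of 0.05 (SE 0.09). Slc7a10, an amino acid transporter gene 64.5 kb from Cebpa, had a liver value of -0.43 (SE 0.34) and a heart value of -0.41 (SE 0.45).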

How the data were processed

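Total RNA depleted of ribosomal RNA was sequenced in pairs of 75 base reads from stranded libraries, per the labels. The authors' deposited values are raw counts per Ensembl gene. Per the submitters' processing notes the build was mm10 and the tools were HISAT2, featureCounts, cutadapt and limma, besides CASAVA, bcl2fastq and FastQC. The annotation and strand setting are not given in the sources used here.

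Counts were tested with edgeR 4.0.16 in R 4.3.3 (TMM, filterByExpr, quasi-likelihood F test), 2 groups at a time, and checked on simulated data. The SE is the log2 change over the square root of F, and 95% intervals are 1.96 SE either way. Alternatives were DESeq2 1.42.0, limma-voom (limma 3.58.1), RLE scaling, other filters, protein-coding genes alone, left-out replicates and libraries, a replicate or animal block, and 1 fit of all libraries. Leaving out WT livers 3 and 4 or the replicate 4 hearts between tissues was chosen after seeing the data. Exact permutation tests used scipy 1.17.1. Counting intervals and floors cover counting error only.

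Liver and heart came from the same animals by their numbers in the labels (r of deviations 0.0102 to 0.0762). Within groups the chi-square per gene was 23.49 or more, so no library was a copy.

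The members and lists were chosen with earlier results of these data known. Named were the members, the Msr genes, called or abundant partners (up to 6 with 10 CPM or more), up to 3 called or else most abundant genes per list, called and nearest neighbours, and the 3 most alike profiles. Others are said to be named for their values, and 2 genes that the rule takes are not reported here.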

Additional observations from a re-analysis of the deposited data

How the results depend on the processing

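Cebpa, Cebpb and Cebpg kept their direction and passed in both tissue comparisons in all alternatives run, and no member passed between WT and QKO hearts in any. For Cebpd in heart the log2 change of 0.00 turned to -0.018 (DESeq2), -0.0025 (filter of 1 CPM in 4 libraries), -0.00011 (protein-coding genes alone), -0.054 (without WT heart 3), -0.025 (without WT heart 4), -0.32 to 0.15 (1 library left out, lowest without QKO heart 4 and highest without QKO heart 2), -0.34 (without both replicate 4 hearts), -0.037 (replicate block) and -0.016 (all 16 libraries in 1 fit). For Cebpd between QKO heart and liver, -0.08 turned to 0.011 with the 1 CPM filter, 0.036 without QKO liver 4 and 0.071 without QKO heart 2, with -0.39 the lowest, without QKO heart 4. The 15 genes past the threshold in liver became 50 with DESeq2, 44 with all 16 libraries in 1 fit, 9 with protein-coding genes alone and 12 to 19 when 1 library was left out. The 28 in heart became 64 with DESeq2, 102 without a filter, 16 with all 16 libraries in 1 fit and 18 to 25 when 1 library was left out. The cause was not tested. Leaving out 1 replicate gave 12586 to 13547 genes between WT heart and liver and 13004 to 13672 between QKO heart and liver.

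Between WT and QKO animals of the same replicate number, deviations correlated at -0.0826 to 0.0668 in liver and 0.0113 to 0.220 in heart. Liver and heart of the same animal gave only 0.0102 to 0.0762. These values therefore cannot decide whether the replicate numbers pair WT with QKO animals. With the replicate block 16 genes passed in liver and 50 in heart, with 0 of the 4 tested members in heart. The animal block changed no call of a member between tissues. Cebpe in heart is limited by depth. The other members are limited by the spread of 4 animals and, for Cebpa in heart, also by counts of 67 to 237 per library.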
